A study of Mus musculus with 9 samples.

Results

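The genes described here serve the hormonal control of phosphate and vitamin D in the kidney. They comprise Klotho with the FGF23 receptor, 3 sodium phosphate cotransporters with their scaffold, the parathyroid hormone receptor, and the enzymes and receptor of active vitamin D. Members were named by symbol, and each gene was represented by the brightest probe set that carried its symbol alone. Of the 10 genes, 9 had such a probe set, among 19938 genes tested, and Cyp24a1, the enzyme that inactivates vitamin D, was not analysed here. Whole kidneys of wild type female mice with a mixed FVB/C57BL6 background were profiled on Affymetrix GeneChip Mouse Gene 1.0 ST arrays, 4 for the age of 14 weeks and 5 for that of 96 weeks. No allele or treatment separated the groups, and the mice were perfused before the kidneys were frozen. Values are log2 expression after the robust multi-array average (RMA), where a difference of 1 is a doubling. The methods name 5 mice for the arrays at these ages, and 4 young and 5 old arrays were analysed here. The labels number the arrays as replicates without saying that each is a separate mouse. Each array is called a kidney below on the strength of the methods, and the p-values measure the spread between these arrays.

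FGF23 is a hormone of bone cells that makes the kidney excrete phosphate. It acts through FGF receptors on cells that also carry Klotho, the co-receptor that gives the hormone its high affinity. Together with parathyroid hormone it lowers the amount of phosphate cotransporters in the brush border of the proximal tubule, while these hormones act in opposite directions on the enzyme that makes active vitamin D. Mice without Klotho retain phosphate and show many features of early aging.

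In these arrays the Klotho gene stood slightly lower and Slc20a2 and the scaffold gene Slc9a3r1 slightly higher in old kidneys, and none of these differences passed the test. At an adjusted p under 0.05 from limma, 0 of the 9 measured members were called, against 6.72% of all genes. At an unadjusted p under 0.05, 3 members passed, Kl (lower) with Slc20a2 and Slc9a3r1 (both higher), against 28.5% of all genes. The methods' t-test called 0 after adjustment (1.84% of all genes) and 3 before it (4987 of 19938 genes, or 25%). The adjustment was added here, as the study took a 1.5-fold change with an unadjusted p under 0.05. Old and young values did not overlap for 1 member, Slc20a2, while 13.3% of all genes had no overlap. The median log2 fold change of the 9 members was 0.04, and that of all genes was -0.03. No member reached the 1.5-fold change used in the study's methods.

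The mean of the 9 proximal tubule markers measured, such as Slc5a2 and Slc4a4, was high in every array. It ranged from 11.47 to 11.56 at 14 weeks and from 11.13 to 11.56 at 96 weeks. Each of these markers had a mean over the arrays above the 30th percentile of all genes (5.56), a level that 13956 of 19938 genes reached. So did each of the 9 markers of the thick limb and distal convoluted tubule, such as Umod and Slc12a3. Signal over background was not given, so a dim gene cannot be told from an absent one, and of the members only Cyp27b1 lay below that percentile. Macrophage, B and plasma cell and injury marker means did not overlap between ages. The mean of 7 macrophage markers ranged from 6.95 to 7.11 at 14 weeks and from 7.50 to 8.61 at 96 weeks, where replicate 4 was highest, and the mean of 4 tubular injury markers was highest in replicate 3 (8.85, against at most 7.42 in the other old kidneys). At an adjusted p under 0.05 from limma, 3 of 7 macrophage, 2 of 5 B and plasma cell and 1 of 4 injury markers were higher and 1 of 4 podocyte markers was lower. No T cell, endothelial, adipocyte, adrenal cortex, collecting duct, proximal or distal tubule marker was called. Of all genes 6.72% were called. All 5 T cell markers had positive log2 fold changes, 2 of them at an unadjusted p under 0.05 from limma, against 28.5% of all genes in either direction. In whole tissue, fewer cells of a type and less RNA per cell cannot be told apart.

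The sequences upstream of 4 members are shown because these genes carry the results that follow, Kl with the largest difference among the members, both Slc34 cotransporters with old kidneys far more spread than young ones, and Cyp27b1 as the vitamin D enzyme that was measured. They come from RefSeq on GRCm38.p6, run 5′ to 3′ on the strand of the gene, and cover the bases from 250 to 37 before the start site, which leaves out all bases inside the annotated gene. Capitals mark matches on either strand to the letters AGGTCA (a nuclear receptor half-site), GTTAAT (an HNF1 half-site), CCAAT (the CCAAT box) or GGGCGG (the GC box). No matches overlapped. The windows are chr5:150952357-150952570 (plus strand) for Kl, chr13:55399398-55399611 (plus strand) for Slc34a1, chr2:25234271-25234484 (minus strand) for Slc34a3 and chr10:127047996-127048209 (plus strand) for Cyp27b1.
Kl: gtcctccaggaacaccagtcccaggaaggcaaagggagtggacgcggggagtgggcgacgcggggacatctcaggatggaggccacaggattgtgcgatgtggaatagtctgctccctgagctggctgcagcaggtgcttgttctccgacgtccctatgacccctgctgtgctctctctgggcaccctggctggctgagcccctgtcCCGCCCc
Slc34a1: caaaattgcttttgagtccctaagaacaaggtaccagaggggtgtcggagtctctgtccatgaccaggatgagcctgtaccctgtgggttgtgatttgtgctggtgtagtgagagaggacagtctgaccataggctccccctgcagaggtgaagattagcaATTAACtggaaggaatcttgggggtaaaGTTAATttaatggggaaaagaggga
Slc34a3: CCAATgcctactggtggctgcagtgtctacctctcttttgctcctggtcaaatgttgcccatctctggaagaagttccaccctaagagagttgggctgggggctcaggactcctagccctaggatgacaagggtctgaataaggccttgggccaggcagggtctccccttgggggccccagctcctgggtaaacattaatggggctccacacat
Cyp27b1: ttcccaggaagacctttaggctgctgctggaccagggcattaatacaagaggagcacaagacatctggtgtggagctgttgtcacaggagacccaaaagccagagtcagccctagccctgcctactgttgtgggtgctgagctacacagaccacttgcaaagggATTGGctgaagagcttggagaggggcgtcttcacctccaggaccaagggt
Kl had 64.5% G and C in this window, 9 CpG dinucleotides and 1 GC box, a motif that 27.6% of the 32851 promoters held in windows of the same length. Slc34a1 had 48.1% G and C, against a median of 51.9% over all promoters, and held the HNF1 half-site once on each strand, while 5.68% of promoters held it at all. HNF1 factors are transcription factors of the proximal tubule and liver. Slc34a3 and Cyp27b1 each held 1 CCAAT box, as did 30.3% of promoters, and AGGTCA, present in 12.3% of promoters, was in none of the 4 windows. A match describes the letters and is not evidence of a site in use.

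Kl encodes Klotho, a membrane protein most abundant in the distal convoluted tubule and also made in the proximal tubule. Its log2 expression was 10.29, 10.59, 10.42 and 10.42 in replicates 1 to 4 at 14 weeks. At 96 weeks it was 10.09, 10.42, 9.82, 9.86 and 10.08 in replicates 1 to 5. All old kidneys but replicate 2 lay below every young one, and replicate 2 lay among the young values, so that the groups overlapped. Old kidneys averaged 10.06 ± 0.24 (SD, n = 5) and young kidneys 10.43 ± 0.12 (SD, n = 4). The log2 fold change was -0.37 (standard error, SE, 0.12, 95% interval -0.63 to -0.12, limma adjusted p = 0.079), or 1.29-fold lower in old kidneys. The call depended on the scaling between arrays and on 1 kidney. Kl passed after a repeated quantile normalization (-0.46, limma adjusted p = 0.041), after cyclic loess (-0.45, limma adjusted p = 0.046) and without replicate 2 at 96 weeks (-0.47, limma adjusted p = 0.027), and the log2 fold change was -0.23 (limma adjusted p = 0.19) without replicates 3 and 4 at 96 weeks. These 2 kidneys, lowest in Kl, were also lowest for the mean of the thick limb and distal convoluted tubule markers (9.60 and 9.85, against 9.98 to 10.23 in the other arrays of either age). They held the highest macrophage means as well (8.45 and 8.61). The distal list was mostly low but mixed in replicate 3 at 96 weeks, looked at after its values were seen. Pvalb (7.31), Trpm6 (6.74), Slc12a3 (11.27), Egf (11.685) and Klhl3 (6.496) were lower there than in any other array. Slc12a1 (11.66) was below the young range, though not the lowest. Umod (12.85) and Emx1 (7.73) lay within the young range, and Cldn16 (10.63) was higher than in any other array. Relative to the distal marker mean of each array, the log2 fold change of Kl was -0.33 (limma adjusted p = 0.41), and relative to the proximal tubule marker mean it was -0.29 (limma adjusted p = 0.21). The part of these markers in the Kl difference was not tested beyond these values.

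Over the 9 arrays the genes whose values followed Kl most closely were Arhgap18, Dixdc1 and Eps8, with Pearson's r of 0.956, 0.955 and 0.953. They are the highest of 19938 genes in 9 arrays that share 2 ages, and are given as a description.

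Fgfr1 encodes the FGF receptor that pairs with Klotho. Its value was the same, 7.65, in 6 of 9 arrays, namely in young replicates 2, 3 and 4 and old replicates 1, 3 and 5. Replicate 4 at 96 weeks was lower, at 7.41, and the remaining arrays, young replicate 1 and old replicate 2, were slightly higher, at 7.67. Values shared by at least 6 arrays were found for 1.79% of probe sets, and their cause was not tested. The log2 fold change was -0.05 (SE 0.06, 95% interval -0.18 to 0.09, limma adjusted p = 0.61), and it was 0.00 without replicate 4.

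**Figure D1:**
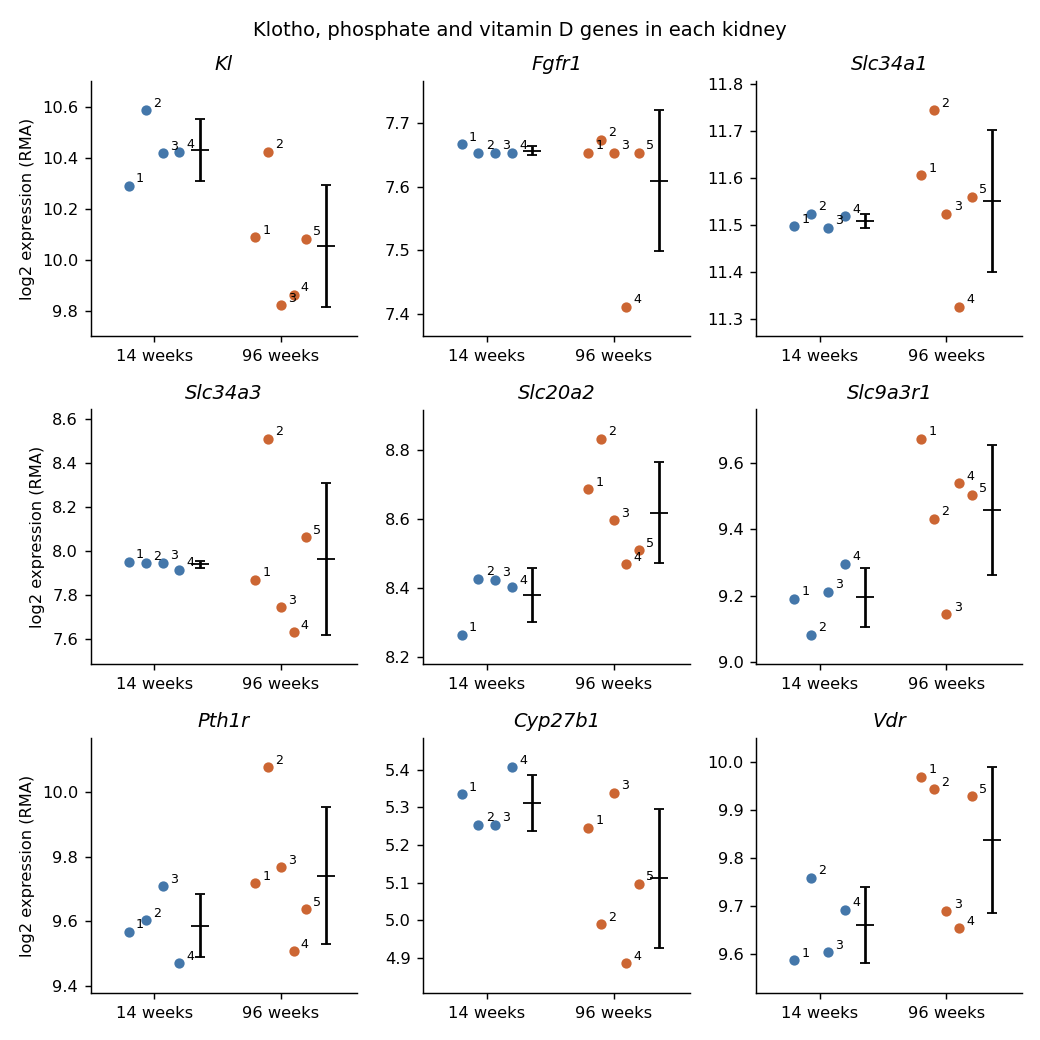
RMA log2 expression of the 9 measured genes in 4 kidneys at 14 weeks (blue) and 5 kidneys at 96 weeks (orange). Points are arrays with their replicate number, with the group mean drawn as a bar ± 1 SD. The ages are separate for Slc20a2 alone, and the old kidneys are more spread than the young ones in every panel.

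The main phosphate carriers of the proximal tubule had mean differences that did not pass the test, and their old kidneys were spread to both sides of the young ones. Slc34a1 encodes NaPi-IIa, which takes up most of the filtered phosphate in mice. Its log2 expression lay between 11.49 and 11.52 in all 4 young kidneys, and was 11.60, 11.74, 11.52, 11.33 and 11.56 in replicates 1 to 5 at 96 weeks. Replicates 1, 2 and 5 lay above every young kidney and replicate 4 below them. The log2 fold change was 0.04 (SE 0.07, 95% interval -0.12 to 0.21, limma adjusted p = 0.72), and its sign turned after a repeated quantile normalization (-0.04) or cyclic loess (-0.03).

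Slc34a3 encodes NaPi-IIc, a related cotransporter of the same membrane. Its log2 expression was 7.95, 7.94, 7.95 and 7.91 in the young kidneys. In old kidneys it was 7.87, 8.51, 7.74, 7.63 and 8.06, with replicate 2 highest and replicate 4 lowest. Replicates 2 and 5 were above and the other 3 below all young values. The log2 fold change was 0.02 (SE 0.15, 95% interval -0.31 to 0.36, limma adjusted p = 0.93), and -0.11 without replicate 2 at 96 weeks.

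The SD of Slc34a3 was 0.345 at 96 weeks and 0.0170 at 14 weeks, a ratio of 20.2. That ratio was 96.3 without young replicate 4 and 10.9 without old replicate 2. For Slc34a1 the SDs were 0.151 and 0.0151, a ratio of 9.98, which was 6.37 without old replicate 4. The ratio of Fgfr1, 15.8, came from replicate 4 at 96 weeks and the shared values of the other arrays. Of all genes, 0.527% had an SD ratio as high as that of Slc34a3 and 1.56% one as high as that of Slc34a1. Both ratios rest on small young SDs, and the old SD of Slc34a1 was close to that of Vdr (0.153). High ratios were not particular to the cotransporters. Among other tubule genes the ratio was 86.7 for Lrp2, 12.5 for Slc12a3 and 8.19 for Slc5a2, but 1.76 for Cubn and 1.74 for Slc12a1. The ratio of Lrp2 rests on young values that were almost equal (SD 0.00155). All 9 members had the larger SD at 96 weeks, as did 58.9% of all genes, with a median ratio of 1.18 over all genes. These ratios were looked at after the values were seen and are given without a test.

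Slc20a2 encodes Pit2, a phosphate cotransporter found in most tissues and also in the proximal tubule. Its log2 expression was 8.26, 8.43, 8.42 and 8.40 at 14 weeks. At 96 weeks it was 8.69, 8.83, 8.60, 8.47 and 8.51. Every old kidney was above every young one, the lowest of them by a narrow margin. The difference in log2 expression was 0.24 (SE 0.08, 95% interval 0.07 to 0.41, limma adjusted p = 0.088), or 1.18-fold higher, and it did not pass in any alternative that was run (0.17 to 0.32, lowest limma adjusted p = 0.067).

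Slc9a3r1 encodes NHERF1, the scaffold that holds NaPi-IIa in the brush border and links the parathyroid hormone receptor to it. Its log2 expression was 9.19, 9.08, 9.21 and 9.30 at 14 weeks, and 9.67, 9.43, 9.14, 9.54 and 9.503 at 96 weeks. Replicate 3, the kidney with the highest injury markers, lay among the young ones, and the other old kidneys above them. Old minus young, the fitted difference was 0.26 (SE 0.10, 95% interval 0.05 to 0.48, limma adjusted p = 0.12). It was 0.34 and passed without replicate 3 (limma adjusted p = 0.026), and also without replicates 3 and 4 together (limma adjusted p = 0.045).

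Pth1r encodes the receptor of parathyroid hormone. On the log2 scale the values were 9.57, 9.60, 9.71 and 9.47 at 14 weeks, and 9.72, 10.08, 9.77, 9.51 and 9.64 at 96 weeks. Replicates 1, 2 and 3 at 96 weeks were above the young range, replicate 2 by most, and the groups overlapped. The difference in log2 expression was 0.15 (SE 0.10, 95% interval -0.07 to 0.38, limma adjusted p = 0.33), and 0.07 without replicate 2 at 96 weeks.

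Cyp27b1, the enzyme that makes the active form of vitamin D, gave a dim signal. In log2 units it read 5.33, 5.25, 5.25 and 5.41 at 14 weeks, and 5.25, 4.99, 5.34, 4.89 and 5.10 at 96 weeks. All old kidneys but replicate 3 were below the young ones, replicate 1 by less than the rounding of these values. Old minus young, the fitted difference was -0.20 (SE 0.09, 95% interval -0.40 to 0.00, limma adjusted p = 0.18), and -0.11 after cyclic loess.

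Vdr encodes the nuclear receptor that active vitamin D binds. On the log2 scale the values were 9.59, 9.76, 9.60 and 9.69 at 14 weeks, and 9.97, 9.94, 9.69, 9.65 and 9.93 at 96 weeks. Replicates 1, 2 and 5 at 96 weeks lay above every young kidney, and replicates 3 and 4 lay within the young range. The difference in log2 expression was 0.18 (SE 0.08, 95% interval -0.002 to 0.36, limma adjusted p = 0.18). It was 0.29 and passed without replicates 3 and 4 at 96 weeks (limma adjusted p = 0.035), and was 0.10 after a repeated quantile normalization. Those replicates held the lowest old values of Vdr, so leaving them out raises the difference.

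The same old kidneys were at the ends of the range for most members. Replicate 2 was the highest of the 5 old kidneys for 6 of the 9 members, Kl, Fgfr1, Slc34a1, Slc34a3, Slc20a2 and Pth1r, and it was highest for 25.5% of all genes. Replicate 4 was the lowest for 7 members, all but Kl and Slc9a3r1, and for 25.3% of all genes. Replicate 4 was also the lowest of the old kidneys for each of the 9 proximal tubule markers, whose mean differed from that of the young kidneys by -0.37 in this array and by -0.06 to 0.06 in the other old kidneys. Against the young mean, replicate 4 differed by -0.57 in Kl, -0.24 in Fgfr1, -0.18 in Slc34a1, -0.31 in Slc34a3 and -0.43 in Cyp27b1. It differed by -0.08 in Pth1r and -0.01 in Vdr, both within the young range, and by 0.09 in Slc20a2 and 0.34 in Slc9a3r1. Replicate 4 held the highest macrophage, B and plasma cell and T cell marker means. In replicate 2 the macrophage mean was the lowest of the old kidneys (7.50) and the distal marker mean the highest (10.23). The part of these markers in the order of the old kidneys was not tested, and the order was noticed after the values were seen.

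**Figure D2:**
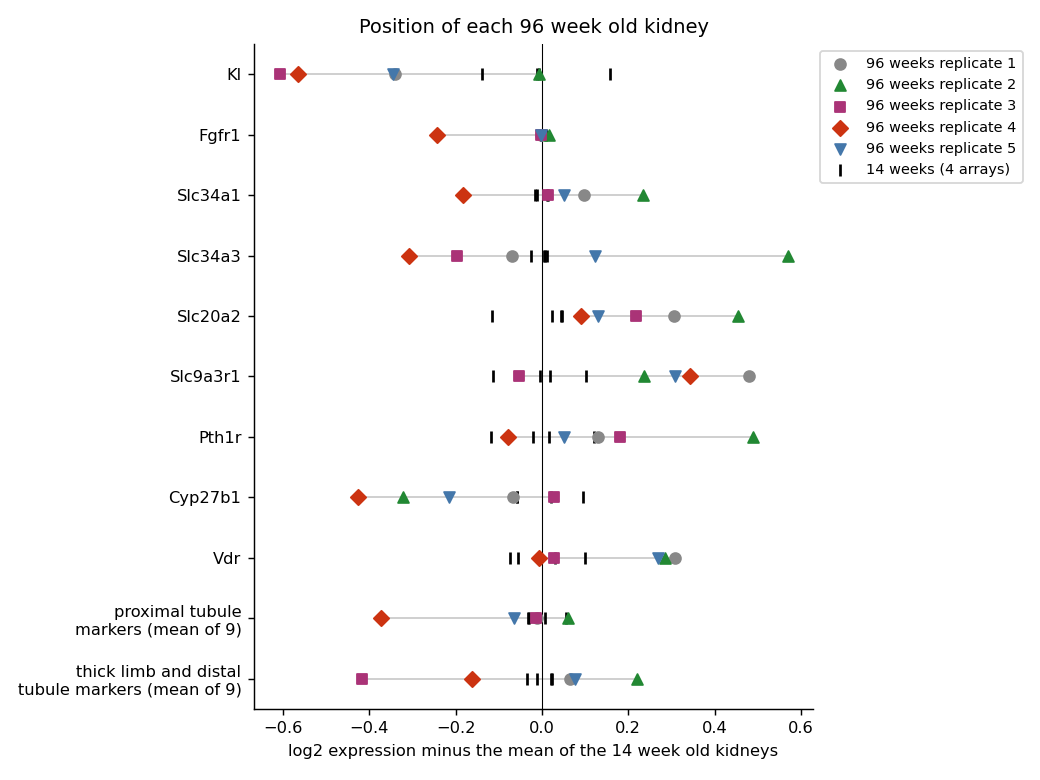
Log2 expression of each 96 week old kidney minus the mean of the 4 young kidneys, for the 9 members and for the means of 2 tubule marker lists. Coloured symbols are the 5 old kidneys and black ticks the 4 young ones. Replicate 2 is the rightmost old kidney for 6 members, and replicate 4 the leftmost for 7 and for the proximal tubule markers.

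Around these members, 49 further genes of the axis were listed by role, and 45 of them were measured. By limma's adjusted p under 0.05, 3 of these were higher and 1 was lower (8.89%, against 6.72% of all genes), and 13 had an unadjusted p under 0.05, a share close to the 28.5% of all genes. The median log2 fold change of the 45 genes was 0.03. The methods' t-test called 0 of them after adjustment, against 1.84% of all genes, and 12 before it, against 25%.

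The calls fell in 4 of the 8 lists, with 1 of 6 phosphate carriers and scaffolds, 1 of 5 genes of FGF23 processing, 1 of 4 genes of parathyroid hormone and calcium sensing, and 1 of 6 genes of distal calcium transport.

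Slc34a2 rose in old kidneys. It encodes NaPi-IIb, the phosphate cotransporter known from intestine and lung, and is the third member of the Slc34 family. In log2 units it read 6.68, 6.47, 6.70 and 6.44 at 14 weeks, and 7.26, 7.20, 7.73, 7.15 and 7.15 at 96 weeks. No old value reached down to the young range, and replicate 3 was highest. Old minus young, the fitted difference was 0.72 (SE 0.12, limma adjusted p = 0.010), or 1.65-fold, and 0.62 without replicate 3 (limma adjusted p = 0.0052). Among the alternatives it was lost alone by the methods' t-test with the adjustment added here (adjusted p = 0.057). At 1.5-fold with an unadjusted p under 0.05 from limma, Slc34a2 passed. Slc20a1, which encodes the related cotransporter Pit1 and was picked after its value was seen, had a fitted difference of 0.18 (limma adjusted p = 0.22).

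Fam20c, a kinase of the secretory pathway that phosphorylates FGF23 and so favours its cleavage, was higher by 0.46 in log2 units (SE 0.08, limma adjusted p = 0.012). The call held without each array in turn, and among the settings that ended it were the scaling to the distal marker mean (limma adjusted p = 0.064) and the methods' t-test (adjusted p = 0.0502). Its values ran from 7.61 to 7.87 at 14 weeks and from 8.09 to 8.42 at 96 weeks. Gna11, a G protein subunit that relays the signal of the calcium-sensing receptor, rose by 0.38 (SE 0.09, limma adjusted p = 0.041). Its ranges, 8.05 to 8.44 and 8.50 to 8.75, did not overlap either. The call of Gna11 held when young replicate 2, old replicate 4 or old replicates 3 and 4 together were left out, and was lost when any other array was left out (limma adjusted p = 0.052 to 0.11). It was also lost after a repeated quantile normalization (limma adjusted p = 0.072), after cyclic loess (limma adjusted p = 0.061), relative to the distal marker mean (limma adjusted p = 0.19) and by the methods' t-test (adjusted p = 0.11).

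Other parts of the axis held no call at an adjusted p under 0.05 from limma. Of all genes 6.72% were called, and 28.5% had an unadjusted p under 0.05. The lists are too small to set their 0 calls apart from that share. None of the 6 genes of the Klotho family and FGF receptors passed (1 at an unadjusted p under 0.05, Lctl, at -0.21). None of the 3 proteases that can shed Klotho passed (1 unadjusted, Adam10, at 0.14), and none of 8 outputs of FGF receptor signalling did (2 unadjusted, Etv5 at 0.30 and Spred1 at 0.12). None of 7 genes of vitamin D uptake, its first hydroxylation and RXR partners passed, and none did unadjusted. Lrp2 and Cubn, the receptors that take up filtered vitamin D with its binding protein, had log2 fold changes of -0.01 and 0.01. The methods' t-test called 0 genes of these 4 lists after adjustment, against 1.84% of all genes. These unadjusted results, and Lrp2 and Cubn, were picked after their values were seen.

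**Figure D3:**
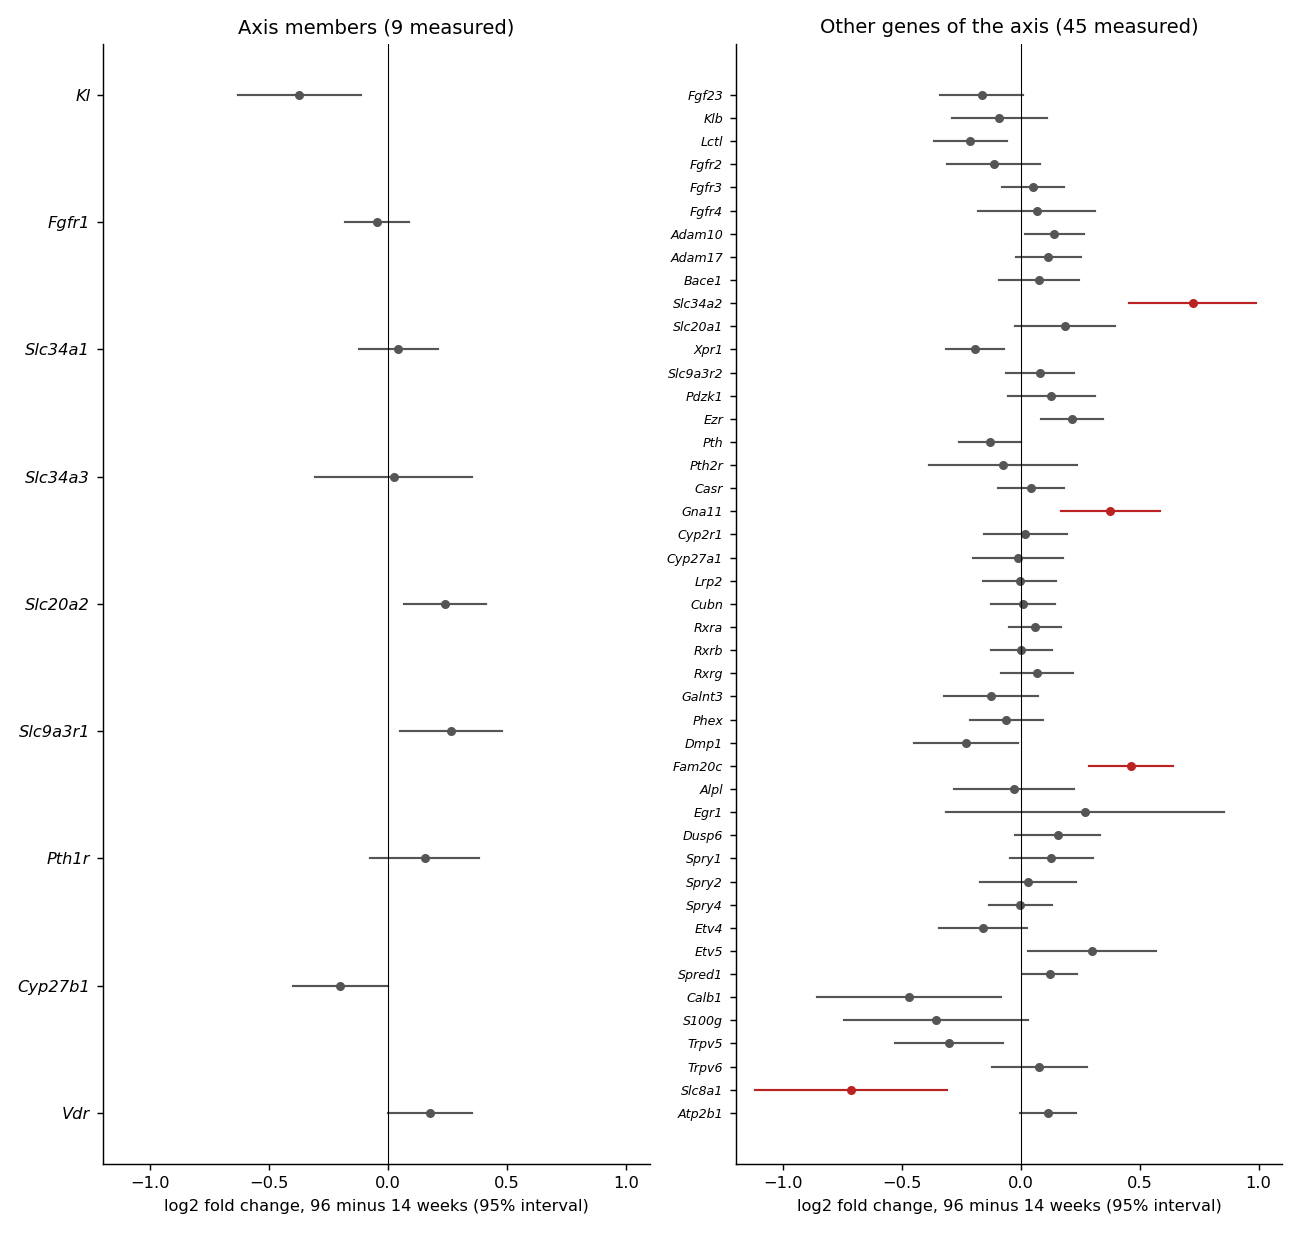
Log2 fold change (96 minus 14 weeks) with its 95% interval from limma for the 9 members (left) and 45 other genes of the axis (right). Red marks an adjusted p under 0.05. No member is red, and Slc34a2, Gna11 and Fam20c lie to the right and Slc8a1 to the left.

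Of 6 genes of distal calcium transport known as vitamin D targets, Slc8a1 fell by 0.71 in log2 units (SE 0.18, limma adjusted p = 0.044). Slc8a1 encodes the sodium-calcium exchanger that passes calcium to the blood, and all its old values (8.17 to 8.78) were below all young ones (8.82 to 9.65). A dimmer probe set of the gene gave -0.26, and the call was lost when any single array other than replicate 1 at 14 weeks was left out (limma adjusted p = 0.057 to 0.12). It was lost as well with array weights (limma adjusted p = 0.062), with the mean over probe sets (limma adjusted p = 0.098) and by the methods' t-test (adjusted p = 0.12). Slc8a1 passed at 1.5-fold with an unadjusted p under 0.05 from limma. Relative to the distal marker mean the call held (-0.67, limma adjusted p = 0.011). Of the 6 genes, 4 had negative and 2 positive fitted differences. An unadjusted p under 0.05 was found for 3 of the negative ones, and for 28.5% of all genes in either direction. Calb1, the calcium-binding calbindin of the same cells, and picked after its values were seen, had a fitted difference of -0.47 (limma adjusted p = 0.12). Its values did not overlap between ages, as was so for 13.3% of all genes. The lowest value of Calb1, 9.99, was in replicate 3 at 96 weeks, which was also lowest in Kl and in the distal marker mean.

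**Figure D4:**
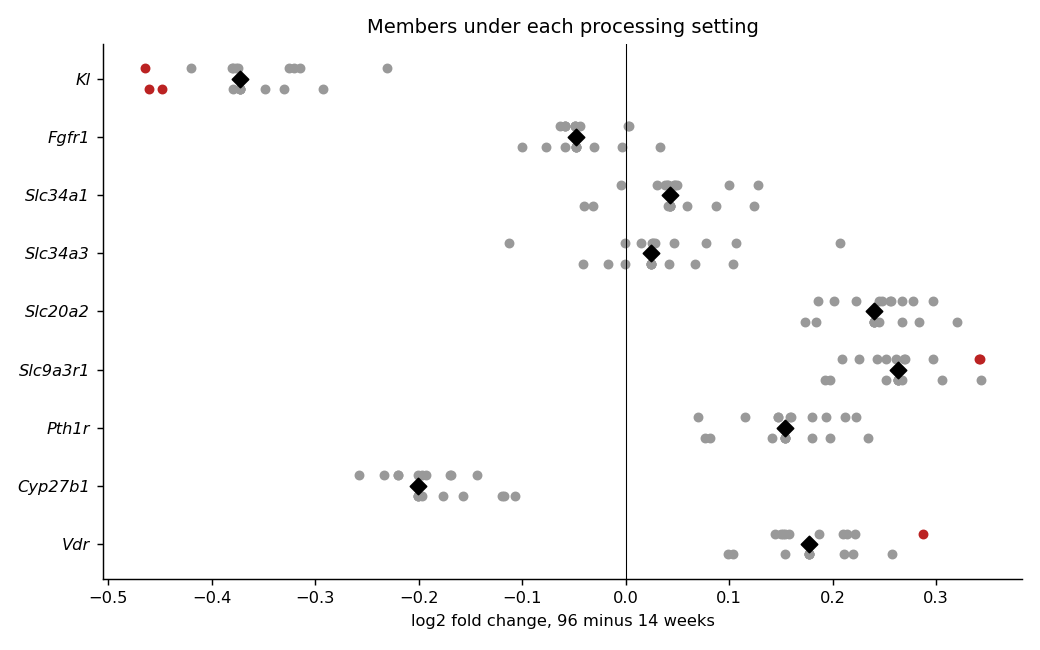
Log2 fold change (96 minus 14 weeks) of each member under every setting. Black diamonds are the values reported, points above them leave out arrays, points below them use another test, scaling or filter, and red points have an adjusted p under 0.05. Kl has 3 red points, Slc9a3r1 has 2 and Vdr has 1, while Slc34a1, Slc34a3 and Fgfr1 lie on both sides of 0.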

How the data were processed

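The authors processed the scans of 9 arrays in Affymetrix Power Tools 1.12.0 by RMA, which includes quantile normalization. The deposited table gives log2 expression for each probe set. The genome build behind the array annotation is not given in the sources used here. Of 35557 probe sets, 21789 carried 1 symbol, 1621 several and 12147 none, and those with 1 symbol gave 19938 genes. limma 3.58.1 in R 4.3.3 (lmFit, then eBayes) gave the test between ages, and p-values were adjusted over all genes by the method of Benjamini and Hochberg. It was tested on simulated data with 19938 genes, where it recovered 77.6% of 67 genes given a log2 shift of 0.5 and 95.5% of 67 given a shift of 1. The simulated noise was independent and normal with the same SD at both ages, unlike the members, whose SDs were larger at 96 weeks. The smallest simulated shift was above the difference of every member, so recovery at their size was not tested. Members and gene lists were chosen with earlier results of these data known. Alternatives were the t-test of the methods, array weights, a trend in limma, a filter on dim genes, other scalings, the mean over probe sets, a replicate block and leaving out arrays. Leaving out arrays for the SD ratios was chosen after seeing the data. Genes named outside the members are the axis genes that passed, the 3 genes most like Kl, examples from the marker lists, and those marked as picked later. Cell type lists covered tubule segments, podocytes, endothelium, macrophages, B, plasma and T cells, adipocytes, adrenal cortex and tubular injury. Without a probe set of their own, Cyp24a1, Pthlh, Gnas, Gc and Enpp1 were not analysed here. Arrays correlated at 0.978 to 0.992 and none was a copy. Promoters of 7 members were found in RefSeq (GRCm38.p6). Python 3.11.15 was used for tables and figures.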

Additional observations from a re-analysis of the deposited data

Results flagged for a closer look

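In 26 groups of arrays (13 genes at each age), 4 values stood apart from the rest of their group by Dixon's ratio of gap to range, and chance alone sets about 1 group in 20 apart. Fgfr1 read 7.41 in replicate 4 at 96 weeks, with the next value at 7.65. At 14 weeks it read 7.67 in replicate 1, where the other 3 arrays shared 1 value, so that this gap is only 0.01. Slc20a2 read 8.26 in replicate 1 at 14 weeks, with the next at 8.40, and its log2 fold change was 0.20 without that array. Slc34a2 read 7.73 in replicate 3 at 96 weeks, with the next at 7.26. What set these arrays apart was not tested.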

How the results depend on the processing

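Between 0 and 1 of the 9 members were called when single arrays were left out, 2 (Slc9a3r1 and Vdr) without replicates 3 and 4 at 96 weeks, and 1 (Kl) after a repeated quantile normalization or cyclic loess. In every other alternative that was run 0 were called. Of the 179 alternative values of the members, 162 kept their sign and their side of the threshold and 6 passed it. The other 11 turned their sign, all in members with a log2 fold change within 0.05 of 0. Slc34a1 was at -0.04 after the repeated quantile normalization, -0.032 after cyclic loess and between -0.005 and 0.10 without single arrays. Slc34a3 was at -0.041, -0.017 and, with the replicate block, -0.001, and between -0.11 and 0.11 without single arrays. Fgfr1 was at 0.033 relative to the proximal tubule markers, between -0.064 and 0.002 without single arrays and 0.003 without replicates 3 and 4 at 96 weeks. Of the other axis genes, 4 were called in limma, 0 by the methods' t-test after adjustment and 2 relative to the distal markers. With the replicate block 1 (Slc34a2) was called, and Fam20c, Gna11 and Slc8a1 were lost (limma adjusted p = 0.054, 0.083 and 0.081). At 1.5-fold with an unadjusted p under 0.05 from limma, 2 passed, Slc34a2 and Slc8a1. When single arrays were left out, 2 to 3 were called.

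Over all genes 860 were higher and 479 lower, against 533 and 473 after the repeated quantile normalization, 585 and 60 relative to the proximal tubule markers and 320 and 56 relative to the distal markers. The t-test of the methods called 367 genes, the replicate block 368 and the filter on dim genes 1580. Without single arrays 528 to 1135 were called. Deviations of arrays with the same number correlated at -0.04 to 0.08, and only replicate 1 correlated best with its own number. The labels do not say whether the numbers pair the arrays, and correlations this low cannot decide it. The cause of these changes in the number of calls was not tested. The number of arrays limits the precision, and the intervals of the members allow differences of up to about 0.63 on the log2 scale.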
